A study of Mus musculus with 4 samples.

Results

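The genes described here encode the protein scaffold on which a sarcomere is built, and they were read in embryonic muscle with and without the myogenic factors MyoD or Myf5. They are 10 genes of the 18193 that the platform annotation names with a single symbol: the sarcomeric actins Acta1 and Actc1, the thin filament proteins Neb and Lmod3, the Z-disc proteins Actn2, Csrp3 and Ldb3, titin (Ttn), and the M-band proteins Myom1 and Myom3. Every probe set that the annotation gives to 1 of these symbols was taken, 17 in all, of which Ttn has 6, Ldb3 has 3 and each other gene has 1. RNA came from BALB/c mouse embryos at E13.5, and the 4 groups were wild-type (WT) limb muscle, limb muscle of MyoD-/- embryos, WT back muscle and back muscle of Myf5-/- embryos. The mutants are described only as null for Myod or Myf5 on BALB/c, and the sources used here give neither the design of an allele nor the number of embryos behind an array. Each group is 1 Affymetrix array, so no value has a replicate error, no test over samples was possible, and every difference is between single arrays.

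In a sarcomere, actin filaments are anchored at the Z-disc, where alpha-actinin crosslinks them, and they point towards the M-band, where myomesins tie the myosin filaments together. Nebulin runs along the actin filament, leiomodin nucleates actin and acts at its free end, and titin spans from Z-disc to M-band and serves as an elastic ruler. In skeletal muscle of the embryo, the cardiac actin gene Actc1 is normally active together with the skeletal gene Acta1, and MyoD and Myf5 are among the factors that start the muscle programme.

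Signals are MAS5 intensities that were rescaled to a 2% trimmed mean of 500 per array, with values under 100 set to 100 in ratios, and each gene is represented by its brightest probe set unless stated. A gene was counted as lower or higher when the ratio was at least 2-fold and the brighter array reached 200. As a yardstick for probe noise, the SD of log2 ratios among probe sets of one gene had a median of 0.35 in the limb pair, 0.32 in the back pair and 0.35 between the WT arrays. This spread between probe sets says nothing of the spread between embryos. Myod1 was 1438 in WT limb and 688 in MyoD-/- limb. Myf5 was 583 in the back array labelled Myf5-/- against 508 in WT back, so that its signal does not bear out this label, and every direction in the back pair rests on the label. The sources used here do not say where the probes lie relative to the mutated parts. Over all genes, 30.7% of the counted differences in the limb pair and 68.9% of those in the back pair were in the higher direction, against 45.6% and 50.1% after quantile normalization and 42.2% and 53.4% after loess. The 3 prime over 5 prime ratio of the Gapdh control was 12.2 in WT limb, 8.06 in MyoD-/- limb, 6.45 in WT back and 9.46 in the back array labelled Myf5-/-. The Actb control gave 6.88, 3.86, 3.20 and 4.28 in the same arrays. Both control ratios were highest in WT limb and lowest in WT back. They thus moved with genotype and with site, and their part in the ratios below was not tested.

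All 10 genes were above 100 in all 4 arrays, and 9 of them were highest in WT back. The exception was Myom3, which was highest in the back array labelled Myf5-/- by less than the spread between probe sets. The share of all genes that were highest in WT back was not computed. In 9 of 10 genes both back arrays lay above both limb arrays, with Csrp3 the exception, while this order held for 20.5% of all genes at 100 or more in at least 1 array. The low end was divided: 6 genes were lowest in MyoD-/- limb (Acta1, Actc1, Actn2, Csrp3, Ttn and Myom3), and 4 were lowest in WT limb (Neb, Lmod3, Myom1 and Ldb3 by its brightest probe set; its other 2 probe sets were lowest in MyoD-/- limb). The highest array exceeded the lowest by 2.11-fold in Actc1, the narrowest range, and by 7.66-fold in Neb, the widest.

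**Figure D1:**
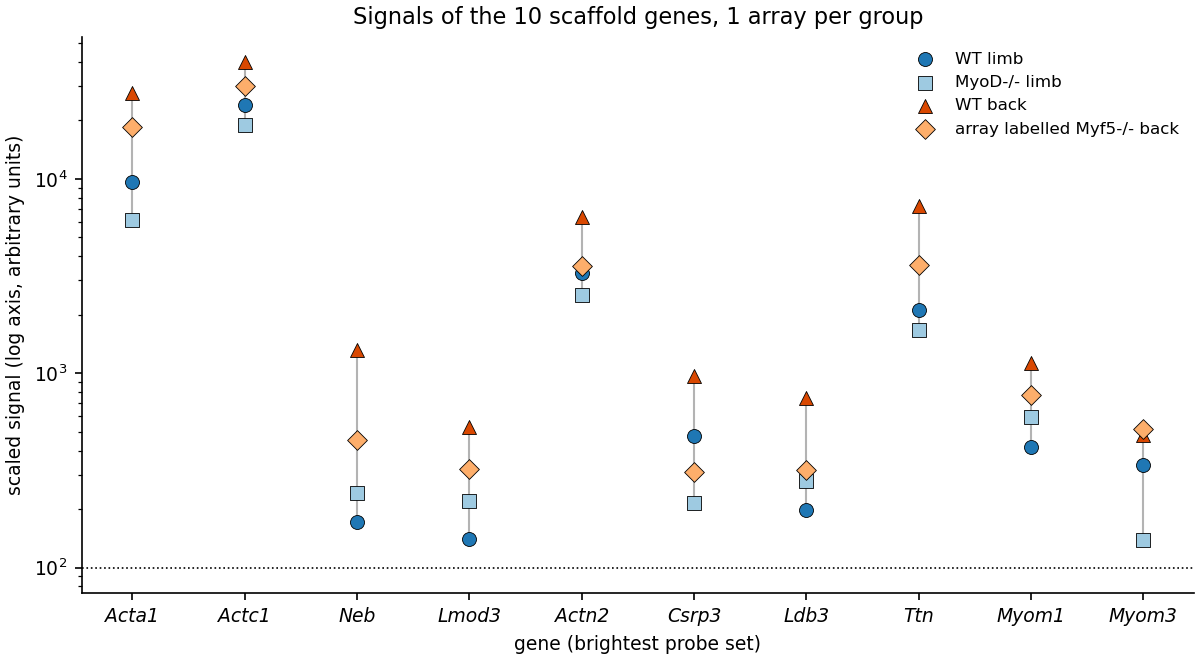
Scaled signal (log axis) of the brightest probe set of each scaffold gene in the 4 arrays, 1 symbol per array, with a dotted line at the floor of 100. WT back is the top symbol in 9 of 10 genes; heights of different genes come from different probes and are not comparable.

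The stretches of 250 bases upstream of the annotated start were read for 8 of the 10 genes from RefSeq (GRCm38.p6); Neb and Lmod3 had no entry. They are shown for the genes that held a CArG box (the site of serum response factor) or a MEF2 site. Csrp3 and Actn2, which held neither, were also highest in WT back, while Myom3, with a MEF2 site, was not. No link between a motif and a level was tested. The motif searches covered both strands and used CANNTG for the E-box, the kind of site bound by MyoD and Myf5, and the standard degenerate forms of the CArG box and the MEF2 site. Capitals mark the E-boxes, CArG boxes and MEF2 sites, which do not overlap each other here; sequences run 5′ to 3′ on the gene's strand and end at the base before the start.
Acta1 chr8:123894776-123895025 (minus strand): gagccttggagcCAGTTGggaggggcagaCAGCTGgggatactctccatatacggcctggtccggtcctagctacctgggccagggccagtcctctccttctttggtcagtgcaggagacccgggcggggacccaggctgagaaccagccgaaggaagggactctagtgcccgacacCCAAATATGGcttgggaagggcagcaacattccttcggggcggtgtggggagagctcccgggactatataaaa
Actc1 chr2:114052876-114053125 (minus strand): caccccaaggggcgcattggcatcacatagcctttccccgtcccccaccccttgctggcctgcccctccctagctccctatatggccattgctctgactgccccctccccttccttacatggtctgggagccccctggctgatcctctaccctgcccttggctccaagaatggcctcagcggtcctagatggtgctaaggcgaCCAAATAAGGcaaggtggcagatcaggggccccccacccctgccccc
Ldb3 chr14:34588682-34588931 (minus strand): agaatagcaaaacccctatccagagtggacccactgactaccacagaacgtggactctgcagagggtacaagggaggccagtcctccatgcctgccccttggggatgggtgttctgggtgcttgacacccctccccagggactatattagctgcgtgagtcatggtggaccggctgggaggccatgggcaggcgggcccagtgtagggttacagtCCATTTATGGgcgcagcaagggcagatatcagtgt
Myom1 chr17:71019307-71019556 (plus strand): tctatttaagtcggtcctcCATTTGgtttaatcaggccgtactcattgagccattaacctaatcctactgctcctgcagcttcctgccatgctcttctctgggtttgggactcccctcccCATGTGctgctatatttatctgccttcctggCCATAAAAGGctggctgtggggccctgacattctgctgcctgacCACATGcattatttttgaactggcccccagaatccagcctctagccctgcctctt
Ttn chr2:76982548-76982797 (minus strand): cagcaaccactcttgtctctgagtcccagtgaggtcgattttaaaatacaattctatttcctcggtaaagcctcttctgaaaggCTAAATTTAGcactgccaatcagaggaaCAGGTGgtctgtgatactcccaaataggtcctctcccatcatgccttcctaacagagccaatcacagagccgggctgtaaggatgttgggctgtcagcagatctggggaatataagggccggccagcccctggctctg
Myom3 chr4:135759465-135759714 (plus strand): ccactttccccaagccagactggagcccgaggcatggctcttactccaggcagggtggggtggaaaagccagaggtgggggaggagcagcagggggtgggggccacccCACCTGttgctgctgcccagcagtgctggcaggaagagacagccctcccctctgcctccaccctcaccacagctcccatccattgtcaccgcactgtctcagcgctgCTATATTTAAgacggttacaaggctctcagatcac
A CArG box was found in 4 of the 8 windows and in 1.47% of all 32851 such windows in the table, in which a gene with several starts has several windows. It read CCAAATATGG in Acta1, with its first base 73 bases before the start, CCAAATAAGG in Actc1 (47 bases before), CCATTTATGG in Ldb3 (35 bases before) and CCATAAAAGG in Myom1 (99 bases before). A MEF2 site was found in 2 of the 8 windows, those of Ttn (CTAAATTTAG, 166 bases before) and Myom3 (CTATATTTAA, 35 bases before), and in 2.92% of all windows. E-boxes were in 6 of 8 windows and in 66.2% of all windows, so they do not set these genes apart. The windows of Csrp3 and Actn2 held E-boxes alone of these motifs. For Csrp3 and Ldb3, which have 2 annotated starts each, the first window in the table was used. A match describes the letters of the window and not the binding of a factor. The genes with a CArG box did not share a direction in MyoD-/- limb, where Acta1 and Actc1 were lower and Myom1 and the brightest Ldb3 probe set higher, as described next.

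In the main processing, the sarcomeric actins each gave like ratios in the limb pair and the back pair. Acta1, the skeletal alpha-actin, had signals of 9592 in WT limb, 6172 in MyoD-/- limb, 27605 in WT back and 18392 in the back array labelled Myf5-/-. The MyoD-/- array was 1.55-fold lower in the limb (log2 ratio -0.64), and the array labelled Myf5-/- lower in the back by a similar ratio (-0.59). WT limb was 2.88-fold lower than WT back (-1.53). Actc1, the cardiac alpha-actin, had 23993, 18934, 39912 and 30127 in the same order of arrays, with log2 ratios of -0.34 in the limb pair, -0.41 in the back pair and -0.73 for WT limb over WT back. The limb difference of Actc1 lay within the spread between probe sets, and it was -0.16 after loess. The back ratio of Actc1 was -0.58 after loess. Under quantile normalization Actc1 had -0.22 in the limb pair and -0.69 in the back pair, so its likeness between the pairs depended on the scaling. WT limb over WT back was -1.04 for Actc1 under quantile normalization and -1.02 after loess, past 2-fold. The probe set of Acta1 is of a type that can be shared between transcripts of 1 gene, which by itself does not point to another gene. Actin genes are close in sequence, and whether the Acta1 signal holds signal from another actin was not tested. The non-sarcomeric actins, from another list, went both ways in the limb and back pairs. Acta2 had log2 ratios of -0.04 and -0.09, Actg2 -0.17 and -0.30, Actb 0.24 and 0.08, and Actg1 -0.23 and 0.50. For WT limb over WT back, 3 of these 4 were below 0, with a median of -0.51. Acta2 was -0.73, near Actc1, while Actg2 was -0.63, Actb -0.38 and Actg1 0.22.

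The 2 proteins that shape the thin filament were dim in the limb and bright in WT back. Neb, nebulin, was 172 in WT limb, 242 in MyoD-/- limb, 1317 in WT back and 452 in the back array labelled Myf5-/-. This was the largest limb-to-back difference of the group, 7.66-fold (-2.94), and it was -2.38 with a pseudocount of 100 in place of the floor. Neb was also 2.92-fold lower in the back array labelled Myf5-/- than in WT back (-1.54), but 1.41-fold higher in MyoD-/- limb than in WT limb (0.49). Lmod3, leiomodin 3, was 140 in WT limb, 219 in MyoD-/- limb, 528 in WT back and 320 in the back array labelled Myf5-/-. Its order of arrays was that of Neb, with log2 ratios of 0.65 in the limb pair, -0.72 in the back pair and -1.92 for WT limb over WT back. Both limb signals of these genes lie near the floor, and with a floor of 200 their limb ratios were 0.28 for Neb and 0.13 for Lmod3. Each is read by 1 probe set.

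Of the Z-disc proteins, Csrp3 differed most in the mutants. Csrp3, the muscle LIM protein, was 474 in WT limb, 215 in MyoD-/- limb, 968 in WT back and 310 in the back array labelled Myf5-/-. Each mutant array lay below both WT arrays, an order that no other gene of the group had. The difference was 2.20-fold in the limb (-1.14) and 3.12-fold in the back (-1.64). Its limb ratio was -0.86 with a pseudocount of 100, short of 2-fold. WT limb was 2.04-fold lower than WT back (-1.03), but just short of 2-fold under quantile normalization (-0.98) and loess (-0.97). Actn2, the alpha-actinin of the Z-disc, was 3277, 2521, 6371 and 3553 in WT limb, MyoD-/- limb, WT back and the back array labelled Myf5-/-. WT back stood apart from the other 3 arrays, and WT limb and the back array labelled Myf5-/- differed by 0.12 on the log2 scale, within the spread between probe sets. The ratios of Actn2 were -0.38 in the limb pair, -0.84 in the back pair and -0.96 for WT limb over WT back.

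The probe sets of Ldb3, a PDZ and LIM protein that binds alpha-actinin, did not tell one story. The brightest, 1433783_at, was 198 in WT limb, 277 in MyoD-/- limb, 745 in WT back and 319 in the back array labelled Myf5-/-, with log2 ratios of 0.48, -1.23 and -1.91 in the limb pair, the back pair and WT limb over WT back. The probe set 1451999_at was 190, 114, 332 and 259 in the same arrays, and its limb ratio had the opposite sign (-0.74), with -0.36 in the back pair and -0.81 for limb over back. The probe set 1416752_at was 174, 129, 193 and 289, and it was the only one of the group's 17 whose back ratio was above 0 beyond the spread (0.59); its limb ratio was -0.43 and its ratio for limb over back -0.15. Ldb3 is known for several splice forms, and the sources used here do not say which of them each probe set reads. No direction is therefore given for Ldb3 as a gene in either mutant.

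Ttn, the titin gene, was read by 6 probe sets that differed in brightness. The brightest, 1427445_a_at, was 2121 in WT limb, 1676 in MyoD-/- limb, 7211 in WT back and 3583 in the back array labelled Myf5-/-. WT back was 3.40-fold above WT limb (-1.77 for limb over back) and 2.01-fold above the back array labelled Myf5-/- (-1.01), while the limb pair differed within the spread between probe sets (-0.34). The second, 1427446_s_at, followed it at 886, 712, 2878 and 1327, with -0.32, -1.12 and -1.70 for the limb pair, the back pair and limb over back. Both carry names that mark shared probes and were listed under the same sequence record, so they are not independent readings. The 4 dimmer probe sets were at most 362 in any array, with 1 of them at 72.5 in WT limb and another under the floor of 100 in both mutant arrays. Their back ratios ran from -0.91 to -0.16 and their limb ratios from -0.15 to 0.39. All 6 were below 0 in the back pair and for WT limb over WT back, whereas the limb pair gave 4 below and 2 above 0. Without shared-probe probe sets, Ttn was represented by 1444638_at and its back ratio was -0.16 (320 against 357), so the 2-fold difference rests on the 2 bright probe sets; under quantile normalization and loess it was -0.97, just short of 2-fold.

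The M-band proteins parted ways. Myom1, myomesin 1, was 416 in WT limb, 594 in MyoD-/- limb, 1124 in WT back and 776 in the back array labelled Myf5-/-, which is the order of Neb and Lmod3 and gave log2 ratios of 0.51, -0.53 and -1.43 in the limb pair, the back pair and WT limb over WT back. Myom3, myomesin 3, was 335, 138, 482 and 515 in the same arrays. It was 2.42-fold lower in MyoD-/- limb (-1.28), the largest limb difference of the group, and it was the single gene of the 10 that had no lower signal in the back array labelled Myf5-/- (0.10, within the spread). The limb ratio of Myom3 was -0.75 with a floor of 200 and -0.87 with a pseudocount of 100, short of 2-fold. Both are read by 1 probe set each.

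**Figure D2:**
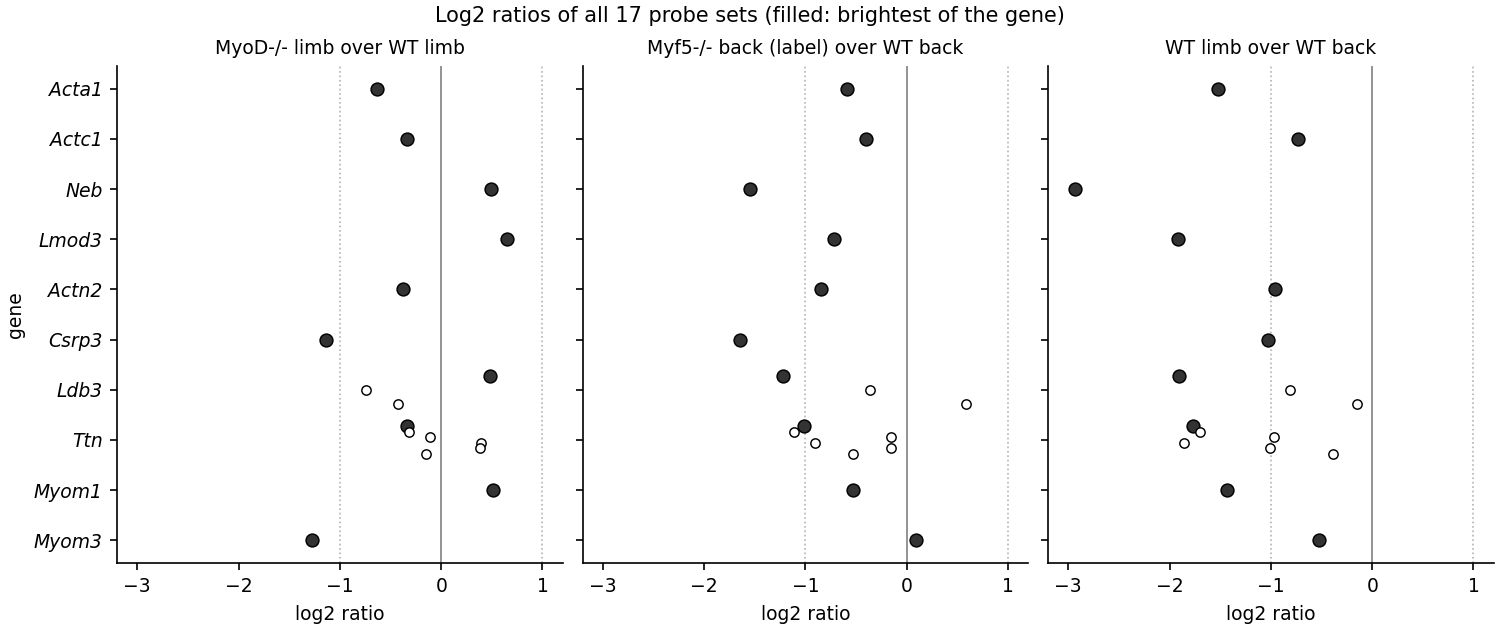
Log2 ratio of all 17 probe sets in the 3 comparisons, with filled points for the brightest probe set of a gene, open points for its other probe sets and dotted lines at 2-fold. All 17 lie below 0 for WT limb over WT back and 15 of 17 in the back pair, against 11 of 17 in the limb pair, where Ldb3 and Ttn have points on both sides. Over all measured genes, 6830 of 14605 were below 0 for WT limb over WT back, 6777 of 14684 in the back pair and 7816 of 14496 in the limb pair.

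Counted as a group, 2 of 10 genes were at least 2-fold lower in MyoD-/- limb (Csrp3 and Myom3), where 5.19% of all genes were lower by this rule, and 0 were at least 2-fold higher, where 2.30% of all genes were. The count of lower genes was 1 with a floor of 200 and 0 with a pseudocount of 100. The median log2 ratio over the 10 genes was -0.34, and that over all 14496 genes measured in the limb pair was -0.04. Beyond the spread between probe sets, 4 genes were lower (Acta1, Actn2, Csrp3 and Myom3) and 3 were higher (Neb, Lmod3 and Myom1), so the median does not describe the genes singly. Ldb3 is in neither count, since its brightest probe set was higher (0.48) and its other 2 were lower (-0.74 and -0.43). For all genes, the shares beyond this spread were not computed. Without shared-probe probe sets, which leaves 9 genes, the median in the limb pair was -0.11. In bulk tissue, fewer muscle cells and less RNA per muscle cell cannot be told apart. In the back array labelled Myf5-/-, the brightest probe sets of 4 of 10 genes were at least 2-fold lower (Neb, Csrp3, Ldb3 and Ttn) against 2.48% of all genes, and 0 were higher against 5.50%. The median in the back pair was -0.78, with 9 of 10 below 0, against 0.05 over 14684 genes, of which 6777 were below 0. With the median over probe sets for each gene the count was 2, the ratios of Ldb3 and Ttn then being -0.36 and -0.72, and the probe sets of Ldb3 do not share a direction in this pair.

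For WT limb over WT back, the brightest probe sets of 7 of 10 genes were at least 2-fold lower in the limb (Acta1, Neb, Lmod3, Csrp3, Ldb3, Ttn and Myom1), where 3.50% of all genes were, and 0 were higher, where 5.30% were. The median was -1.48 against 0.04 over 14605 genes, of which 6830 were below 0. With the median over probe sets Ldb3 was -0.81, short of 2-fold, and the count was 6. Without shared-probe probe sets Ttn was -0.97, also short of 2-fold, Acta1 had no probe set left, and the count was 5 of 9 genes with a median of -1.03. Beside this difference, macrophage genes had a median of -1.18 (7 of 7 below 0, 4 at least 2-fold lower), nerve and Schwann cell genes -0.88 (8 of 9 below 0, 3 at least 2-fold lower), smooth muscle and pericyte genes -0.63 (6 of 7 below 0) and epidermis genes 0.80 (6 of 6 above 0). Markers of other tissues thus moved with site too, and their part in the scaffold ratios was not tested. This comparison shares WT limb with the limb pair and WT back with the back pair, so a departure in either WT array enters 2 comparisons at once. The WT limb over WT back ratios of Neb, Lmod3 and Myom1, for which WT limb was the lowest array, were -2.94, -1.92 and -1.43.

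**Figure D3:**
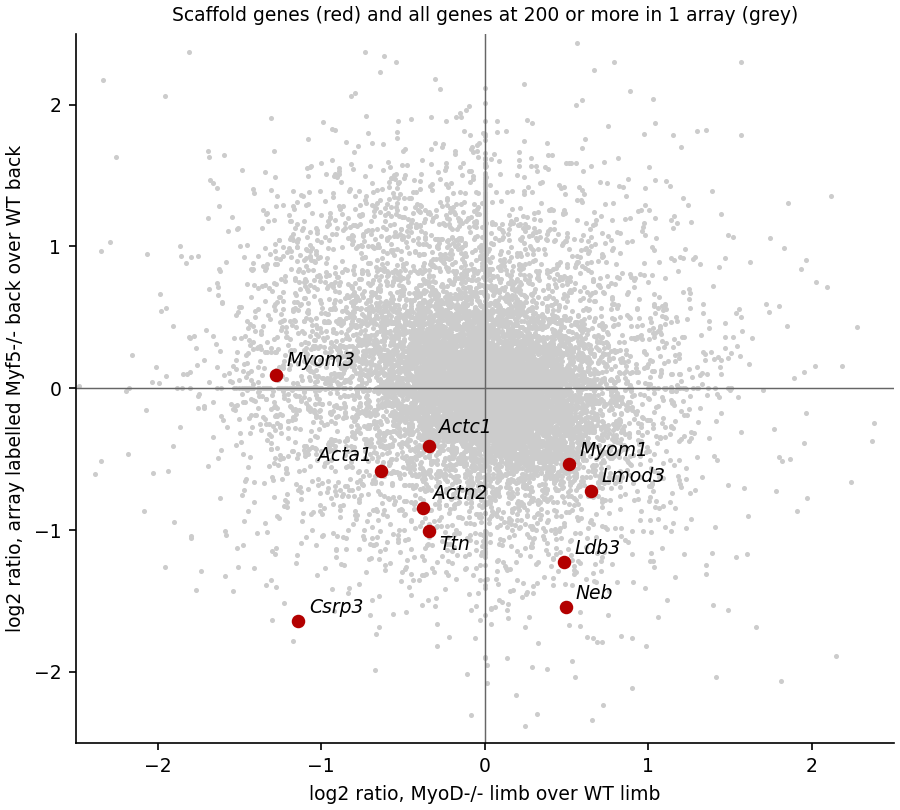
Log2 ratio in the limb pair (horizontal) against the back pair (vertical) for the 10 scaffold genes in red and, in grey, genes at 200 or more in at least 1 array; points beyond 2.5 on either axis are not drawn. Of the red points, 5 are below 0 on both axes, 4 (Neb, Lmod3, Myom1 and the brightest probe set of Ldb3) lie to the right of 0 and below it, and Myom3 lies at the far left, near 0 on the vertical axis.

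Other genes of the same structures were read from lists. Beside their counts, 7816 of all 14496 measured genes were below 0 in the limb pair and 6777 of 14684 in the back pair. Of 24 measured further Z-disc genes, 18 were below 0 in the limb pair and 17 in the back pair, 0 were at least 2-fold lower in either, and the medians were -0.19 and -0.51. Synpo2l, an actin-binding protein of the Z-disc, had -0.80 and -0.89, and Myoz2, a calcineurin-binding Z-disc protein, -0.56 and -0.82. Nebl, nebulette, which is related to nebulin, had 0.82 (649 against 368) in the limb pair and -0.65 in the back pair, the same signs as Neb. In the back pair 2 genes of the list were at least 2-fold higher: Flnc, the muscle filamin, at 3454 against 1667 (1.05), and Ankrd23, which binds titin, at 400 against 196 (1.03). For WT limb over WT back the list's median was -0.34, with 2 genes at least 2-fold lower in the limb and Myoz1 2-fold higher (1.31).

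Of 8 measured further M-band and titin-associated genes, 2 were at least 2-fold lower in MyoD-/- limb: Myom2, the M-protein of the myomesin family, at 1326 against 2909 (-1.13), and Ckm, the muscle creatine kinase, at 169 against 458 (-1.43). Fhl2, a LIM protein that binds titin, was 2-fold higher at 256 against 127. Myom2 resembled Myom3 rather than Myom1 in the limb pair, but its back ratio was -0.59. The list's medians were -0.40 in the limb pair, -0.34 in the back pair and 0.01 for WT limb over WT back. Of 20 measured further thin filament genes, 14 were below 0 in the limb pair, 3 of them at least 2-fold lower (Klhl41, a kelch protein of the myofibril, at -1.47; the troponin genes Tnnc2 at -1.22 and Tnnt1 at -1.03), with a median of -0.42. In the back pair 18 of 20 were below 0 and 2 at least 2-fold lower, Tnnt3 (-1.21) and Tmod1, which caps the free actin end (-1.03), with a median of -0.44. Tmod1 was -0.99 in the limb pair, at 455 against 902, while its relative Tmod3, which is not restricted to muscle, was 0.44.

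Thick filament genes had medians of -0.33, -0.72 and -0.98 in the limb pair, the back pair and WT limb over WT back, over 13, 15 and 15 measured genes. All 15 were below 0 for WT limb over WT back, and 6 were at least 2-fold lower. Myl2, a myosin light chain gene, was 1226 in WT back and under the floor elsewhere (21.4 in WT limb, 62.8 in MyoD-/- limb, 47.2 in the array labelled Myf5-/-). Its ratio for WT limb over WT back was -3.62, the lowest of all genes, and it was -3.62 in the back pair too. Myl3 had -1.79 and Myh7 -1.58 for limb over back, while Myh1 was higher in MyoD-/- limb (1.96). Muscle genes outside the sarcomere had -0.31, -0.54 and -0.65 over 17, 19 and 18 genes. The scaffold genes had -0.34, -0.78 and -1.48, and whether they differ from these lists was not tested. Desmin, Des, the intermediate filament that joins Z-discs, had the signs of Neb, with 0.35, -0.37 and -1.69 (300 in WT limb, 382 in MyoD-/- limb, 970 in WT back and 749 in the back array labelled Myf5-/-).

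**Figure D4:**
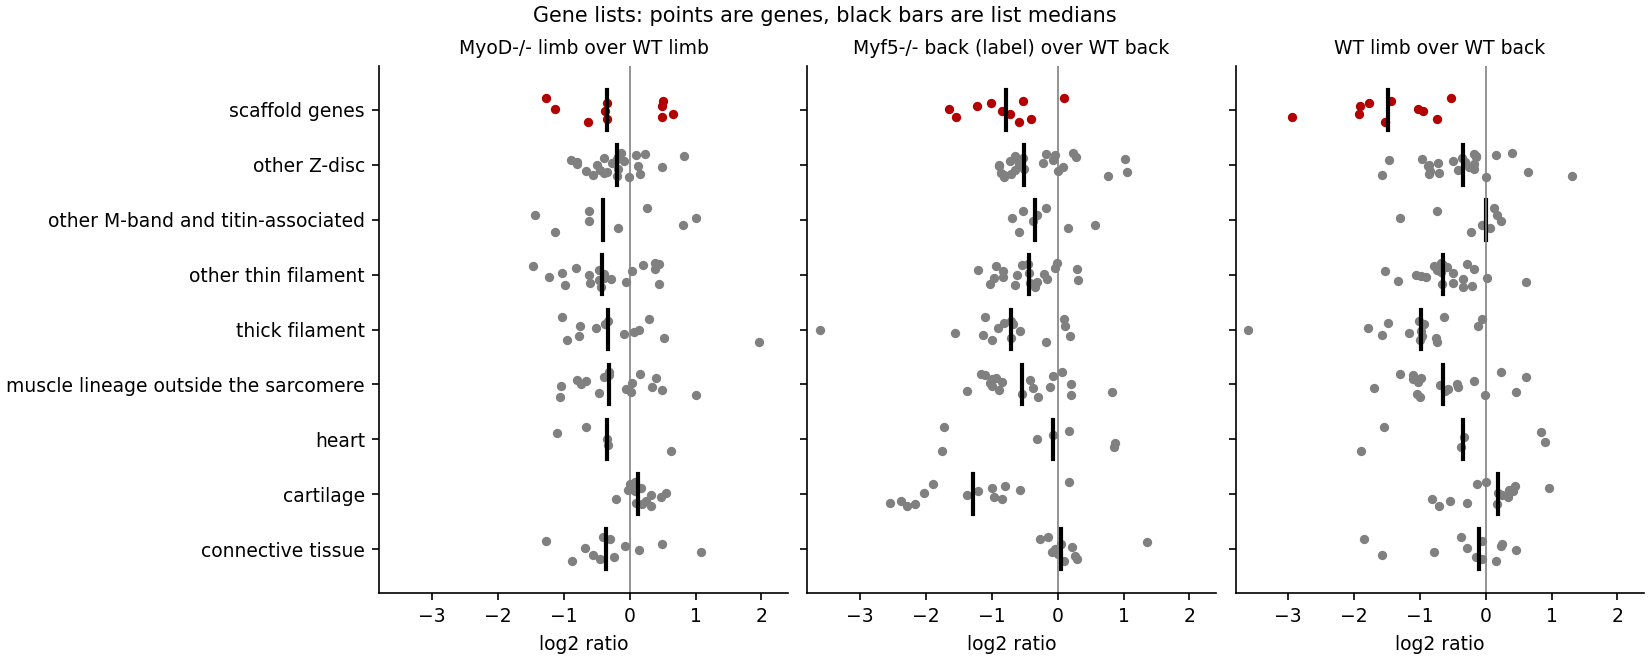
Log2 ratios of the genes of 9 lists in the 3 comparisons; points are genes at 100 or more in 1 of the 2 arrays, black bars are list medians. The scaffold genes have the lowest median for WT limb over WT back (-1.48), and cartilage has the lowest in the back pair (-1.29).

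Genes of other tissues were read beside these results, because Actc1, Csrp3, Actn2, Ldb3 and Ttn are also active in heart muscle. Of 8 heart genes, 4 reached 100 in WT limb, 2 in MyoD-/- limb, 6 in WT back and 7 in the back array labelled Myf5-/-, and their summed signals were 1049, 860, 1645 and 1338. Myh6, the cardiac myosin, was 159, 88.9, 461 and 139 in that order, and Nppa, the atrial peptide gene, was 21.2, 154, 370 and 110, so both were highest in WT back. Tbx20 was also highest there (127, 42.4, 159 and 128). The list leaves out the cardiac troponin T gene Tnnt2, read with the thin filament, which was highest in WT back too (2416, 2482, 6989 and 3911). Myl2, Myl3 and Myh7, read with the thick filament and not here, were also highest in WT back. Other heart genes had another order: the transcription factor genes Nkx2-5 (422, 337, 226 and 414) and Gata4 (215, 99.5, 120 and 115) were highest in WT limb, and Nppb, the second natriuretic peptide gene (32.9, 74.1, 129 and 233), in the back array labelled Myf5-/-. Tnni3, the cardiac troponin I, stayed under 100 in all arrays. Myl7, the atrial light chain, was at most 112. The part of heart tissue in the back differences was not tested. Cartilage genes were lower in the back array labelled Myf5-/- in 13 of 14 cases (summed signal 7045 against 24664 in WT back), and above 0 in 12 of 14 cases in MyoD-/- limb (24382 against 21147 in WT limb). Over all measured genes, 6777 of 14684 were below 0 in the back pair and 6680 of 14496 above 0 in the limb pair. Tendon, connective tissue and macrophage genes had medians of -0.49, -0.35 and -0.21 in the limb pair and -0.25, 0.05 and -0.29 in the back pair. Smooth muscle and pericyte genes had -0.09 in both pairs, nerve and Schwann cell genes 0.17 and -0.20, blood -0.24 and 0.19, endothelium -0.09 and 0.12 and epidermis 0.19 and 0.19. Markers of other tissues thus moved with the mutant arrays, and their part in the scaffold ratios was not tested.

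The average pattern of the group was compared with other genes by the root mean square distance between log2 signals, each centred on its own mean over the 4 arrays. The mean centred log2 signal of the 10 genes was -0.48 in WT limb, -0.67 in MyoD-/- limb, 0.996 in WT back and 0.15 in the back array labelled Myf5-/-. Ttn lay closest to this mean among the 10 (distance 0.16), and Neb (0.52), Myom3 (0.51) and Csrp3 (0.48) farthest. Of 10705 other genes at 100 or more in all arrays and 200 or more in 1, the nearest were Itgb1bp2 (melusin, a muscle protein that binds integrin; distance 0.06), Thbs2 (thrombospondin 2; 0.06), Tnnt2 (cardiac troponin T; 0.09), Mybpc1 (slow myosin-binding protein C; 0.09), Tns2 (0.11), Akap6 (0.11), Prr32 (0.12) and Rnf128 (0.12). Itgb1bp2 had signals of 630, 571, 1771 and 1079 in WT limb, MyoD-/- limb, WT back and the back array labelled Myf5-/-. With 4 arrays such likeness is a description of these arrays only.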

How the data were processed

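The deposited values are MAS5 intensities, per the submitters' processing notes, with 1 linear signal for each probe set on each array; the sources used here give no version. The 2% trimmed mean over all 45101 probe sets was 1500.01 in each deposited column, so the authors had scaled each array to one target. Scanner files and detection calls were not used here. RNA was Trizol-extracted and labelled with biotin, per the labels' protocols.

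From these values, each array was rescaled to a 2% trimmed mean of 500 over probe sets other than the 64 controls, a floor of 100 was applied, and log2 ratios between arrays were computed in Python 3.11.15 (pandas 2.3.3, scipy 1.17.1, loess in statsmodels 0.14.6). Low genes are compressed by the floor. The platform annotation gave the gene names; 34958 probe sets have 1 symbol, and all 10 symbols matched a RefSeq gene table (GRCm38.p6) by Entrez number. The probe set of highest mean log2 signal stands for a gene. Named genes are the 10 members, Myod1 and Myf5, up to 4 genes per list with large ratios plus any needed for both directions, and the 8 nearest patterns. Tmod3, Tnni3, Myl7 and Tbx20 were named outside this rule, after their values were seen. With 1 array per group, 0 p-values were computed. The members and lists were chosen with earlier results of these data known. Tried as 8 alternatives were signals without rescaling, quantile normalization, loess within a pair (span 0.3), floors of 50 and 200, a pseudocount of 100, the median over probe sets and leaving out shared-probe probe sets. The last drops names ending in _s_at, _x_at, _a_at, _i_at or _f_at, and _a_at can mark transcripts of 1 gene only. The steps were tested on simulated data with less noise than the spread between probe sets here. Known changes were placed only in bright probe sets, so that test does not cover signals near the floor. The number of arrays limits the precision.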

Additional observations from a re-analysis of the deposited data

Results flagged for a closer look

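For the brightest probe sets of 4 of the 10 scaffold genes, the 2 mutant arrays departed from their WT arrays in opposite directions, each by more than the spread between probe sets. The difference between the pairs was not tested. The share of all genes that meet this rule was not computed, so whether 4 of 10 is unusual is not known. The limb log2 ratio minus the back log2 ratio was 2.04 for Neb (0.49 and -1.54), 1.71 for Ldb3 (0.48 and -1.23, brightest probe set), 1.37 for Lmod3 (0.65 and -0.72) and 1.05 for Myom1 (0.51 and -0.53). The probe sets of Ldb3 disagree: another had opposite directions with the signs turned (-0.43 in the limb and 0.59 in the back), and the remaining one was below 0 in both pairs (-0.74 and -0.36), so no difference between the pairs is given for Ldb3 as a gene.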

How the results depend on the processing

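Each choice was changed on its own. Of 237 recomputed ratios of single genes, 224 moved by less than the spread between probe sets, 12 moved by more and 1 turned sign: Ldb3 in the limb pair, at -0.43 as the median over its probe sets. Part of this stability was fixed in advance. All 10 genes were above 100 in every array, so a floor of 50 could not move any of the 30 ratios. The deposited columns already shared a trimmed mean, so leaving out the rescaling hardly moved them. A gene with 1 probe set cannot change under the median over probe sets. Members at least 2-fold lower in MyoD-/- limb numbered 1 with a floor of 200 and 0 with a pseudocount of 100, against 2; in the back array labelled Myf5-/- they numbered 2 with the median over probe sets, against 4. The median for WT limb over WT back was -1.03 without shared-probe probe sets, against -1.48. This setting drops Acta1 and replaces the Ttn ratio of -1.77 by that of a dimmer probe set (-0.97), while the other genes keep their ratios. The median in the limb pair was -0.11 without shared-probe probe sets, against -0.34. The other counts stayed within 1.5 times of the main count. The spread between probe sets is that of single genes and is no yardstick for a median over 10 genes. Over all genes, the counts ran from 181 (floor of 200) to 2077 (no rescaling) lower and 115 to 1129 higher in the limb pair, against 753 and 334; from 123 to 1231 lower and 152 to 2087 higher in the back pair, against 364 and 808; and from 261 to 1374 lower and 247 to 2091 higher for limb over back, against 511 and 774. No paired analysis was possible because each group has 1 array. Signals near the floor, as in Neb and Lmod3 in the limb, limit what a ratio can show.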
